A study of Homo sapiens with 18 samples.

Results

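H3K9me3 was compared between U937 cells that lack both SUV39H1 and SUV39H2 (DKO) and U937 cells that lack SUV39H1 alone (SKO), which asks what goes with the added loss of SUV39H2. The comparison rests on 4 of the 18 samples of the series, namely the H3K9me3 libraries of DKO replicates 1 and 2 and of SKO replicates 1 and 2, chosen by mark and genotype as the labels give them. Cells with a control guide, named sgControl, have 2 H3K9me3 libraries and are given as a further level beside the pair. U937 is an established line of human acute myeloid leukaemia. The DKO and SKO groups share the loss of SUV39H1, so DKO differs from SKO by SUV39H2 as labelled, and by whatever else separates the derived lines. The sources used here do not say whether a derivative is a clone or a pool, or how many lines stand behind a genotype. H3K27me3 was profiled in 2 libraries of each genotype, and SETDB1 in wild-type (WT) cells with 2 libraries. Input samples, 4 in number, were not analysed here, so no measure of the amount of DNA per chromosome was used.

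SUV39H1 and SUV39H2 are related methyltransferases that place H3K9me3, the histone mark of constitutive heterochromatin. HP1 proteins bind the mark and help it spread along the chromosome, and it is known above all for pericentromeric repeats, transposable elements and clustered gene families. SETDB1 places the same mark at zinc finger genes and endogenous retroviruses, guided by KRAB zinc finger proteins. H3K27me3 is the mark of the Polycomb complex PRC2 and covers silent developmental and tissue-specific genes.

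The deposited files list the broad domains that epic2 called in each library. A domain is a stretch of neighbouring enriched windows, so the values below say where domains lie and how much they cover, not how much of the mark a cell holds. Reads inside domains numbered 20.6 and 16.5 M (mega) in the DKO libraries, 21.0 and 20.2 M in the SKO libraries, and 23.6 and 17.97 M in the sgControl libraries. The bodies of SUV39H1 and SUV39H2 lay outside H3K9me3 domains in all 6 libraries, which leaves the genotype labels unchecked by these lists. Of 12 myeloid marker genes, 10 were free of H3K9me3 in all 4 knockout libraries, as were 10 of 16 markers of T, B and erythroid cells. The mark does not measure expression, so these values do not test the cell type.

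H3K9me3 domains covered 795 and 788 Mb in DKO, 754 and 756 Mb in SKO, and 1044 and 1013 Mb in sgControl. The DKO libraries lay above both SKO libraries and below both sgControl libraries. The mean was 791 ± 5.01 Mb in DKO and 755 ± 1.55 Mb in SKO (SD, n = 2 each), a difference of 36.5 Mb or 4.83%. That small net difference joined opposite changes. Chromosome 7 had 25.2 ± 0.157 Mb covered in DKO and 58.2 ± 0.197 Mb in SKO, a difference of -33.1 Mb, whereas the other chromosomes together had 766 ± 4.86 Mb in DKO and 696 ± 1.74 Mb in SKO, 69.5 Mb more. An exact permutation test of 2 against 2 libraries has 6 assignments and cannot go below p = 0.333, so none was run on these lengths.

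**Figure D1:**
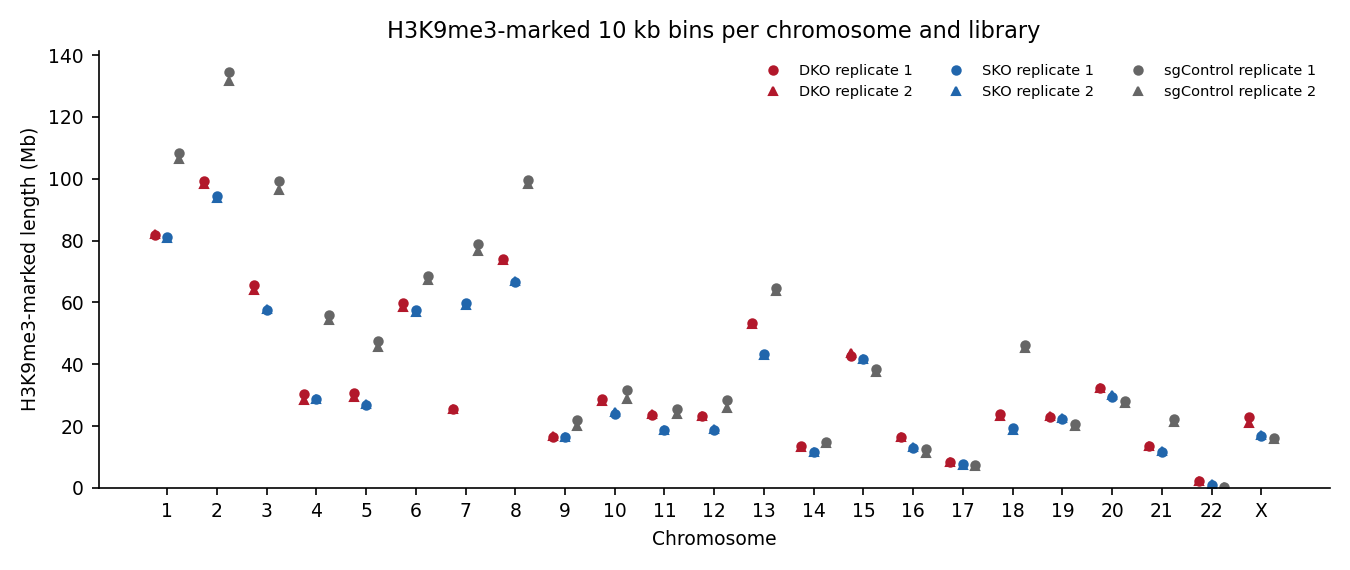
H3K9me3-marked length per chromosome (Mb of 10 kb bins with at least 50% of their length in domains), 1 point per library, for DKO, SKO and sgControl. On chromosome 7 the DKO libraries sit near 25.5 Mb and the SKO libraries near 59.6 Mb, while on the other chromosomes DKO points lie close to SKO points or above them.

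Chromosome 7 stood apart from every other chromosome. A 10 kb bin was counted as marked where at least 50% of it lay in domains. By that measure chromosome 7 had 25.56 and 25.53 Mb marked in DKO, 59.85 and 59.3 Mb in SKO, and 78.9 and 76.5 Mb in sgControl. Both DKO libraries lay far below the others, at 0.429 times the SKO mean. In limma's moderated test of log2 marked length over the 23 chromosomes, chromosome 7 had a log2 difference of -1.22 ± 0.0123 (SE) with an adjusted p of 1.72e-06. It was the only chromosome lower in DKO by this test (4.35% of those tested), while 17 (73.9%) were higher.

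The loss ran along the whole of chromosome 7. In each of 16 windows of 10 Mb the DKO mean lay below the SKO mean. The ratio of DKO to SKO was lowest, at 0.230, between 110 and 120 Mb, where DKO libraries had 0.77 and 0.65 Mb marked and SKO libraries 3.15 and 3.03 Mb. It was highest, at 0.593, in the window that begins at 150 Mb, where DKO libraries had 2.81 and 2.93 Mb and SKO libraries 4.85 and 4.84 Mb. No window of either arm kept the length it had in SKO.

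What DKO kept on chromosome 7 lay almost wholly inside the SKO domains, and it was mostly the strongest of them. Of DKO domain length on chromosome 7, 95.7% and 96.0% fell inside SKO domains, against 73.6% and 74.3% on the other chromosomes. Among 1672 domains of SKO replicate 1 on chromosome 7, 781 (46.7%) met no DKO domain, against 10.6% of its domains elsewhere. When those domains were put into 4 classes by the authors' score, DKO domains covered 6.61% of the length of the lowest class, 11.2% and 24.7% of the middle classes, and 56.7% of the highest. On the other chromosomes the same classes were covered over 52.3%, 66.3%, 78.8% and 90.9%. The remaining chromosome 7 domains were also narrower, since the width above which domains hold 50% of the covered length was 29.2 ± 3.96 kb in DKO and 57.6 ± 4.53 kb in SKO (SD, n = 2 each), against 52.0 ± 3.39 kb and 50.0 ± 3.96 kb on the other chromosomes.

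Reads were sparser on chromosome 7 also within the domains that all 4 libraries shared. In bins marked in all 4, reads per kb on chromosome 7, relative to the other chromosomes, were 0.924 and 0.916 in DKO and 1.11 and 1.11 in SKO, a ratio of 0.828. On the other chromosomes that ratio ran from 0.959 to 1.05. H3K27me3 behaved alike on chromosome 7 in its own shared bins, with 0.811 and 0.812 in DKO and 1.10 and 1.10 in SKO, a ratio of 0.736 against 0.987 to 1.11 elsewhere. H3K27me3-marked length on chromosome 7 was 63.5 and 62.0 Mb in DKO, 75.7 and 75.3 Mb in SKO, and 62.3 and 62.4 Mb in sgControl, a ratio of DKO to SKO of 0.832, where the other chromosomes had 0.977 to 1.21. Both marks thus had fewer domain reads on chromosome 7 in DKO, and a difference in the amount of chromosome 7 DNA between the lines was not tested. For this reason chromosome 7 is kept apart below.

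**Figure D2:**
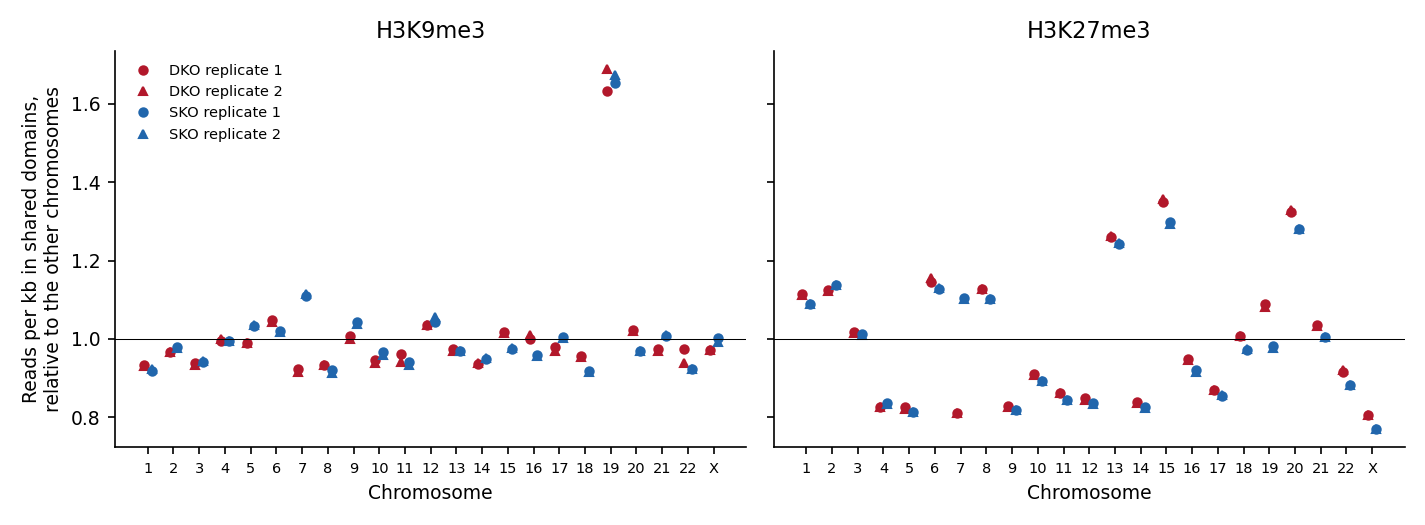
Reads per kb in bins marked in all 4 knockout libraries, divided by the value over the other chromosomes, for H3K9me3 (left) and H3K27me3 (right), 1 point per library. Chromosome 7 is near 0.92 in DKO and 1.11 in SKO for H3K9me3, and near 0.81 in DKO and 1.10 in SKO for H3K27me3, while DKO and SKO points of the other chromosomes lie close together.

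Each of the other 22 chromosomes had a higher mean marked length in DKO than in SKO as deposited, with ratios of 1.01 on chromosome 9 to 2.12 on chromosome 22 and a median of 1.12. The DKO and SKO libraries did not overlap on 21 of them. They overlapped on chromosome 4, with 30.46 and 28.56 Mb in DKO and 28.6 and 28.85 Mb in SKO. Chromosome 22 had little of the mark, with 2.18 and 2.15 Mb in DKO, 0.93 and 1.11 Mb in SKO, and 0.32 and 0.24 Mb in sgControl. Chromosome 11, which carries the largest olfactory receptor clusters, had 23.6 and 23.8 Mb in DKO and 18.7 and 18.8 Mb in SKO (log2 difference 0.34 ± 0.0119, adjusted p = 0.000119). Chromosome 19, which carries many zinc finger genes, had 22.8 and 23.2 Mb in DKO and 22.1 and 22.6 Mb in SKO (0.04 ± 0.0174, adjusted p = 0.0760). The direction rests partly on how long each list is. With every list trimmed by score to the same length on these chromosomes, 13 of 22 had a ratio above 1, 9 were higher and 7 lower by limma, and the median ratio was 1.01.

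By position, 57.46 Mb were lost in DKO, meaning marked in both SKO libraries and in neither DKO library, and 66.1 Mb were gained in the opposite sense. These are 1.9% and 2.18% of all bins. Chromosome 7 held 20.66 Mb of the loss, which is 40.6% of its length marked in both SKO libraries, and 0.07 Mb of the gain. The other chromosomes lost 36.8 Mb, or 6.22% of what they had marked in SKO, and gained 66.0 Mb, or 3.23% of what was unmarked there. With the lists trimmed to the same length on those chromosomes, 51.4 Mb were lost and 42.9 Mb gained, so which of the changes is larger is not settled by these lists. A total of 508 Mb was marked in all 4 libraries. In a further 468 Mb (15.4% of the length) the 2 libraries of at least 1 genotype disagreed, 438 Mb of it outside chromosome 7. That length exceeds both the lost and the gained length.

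The changes were scattered and short. Outside chromosome 7 the loss formed 2961 stretches, 81.5% of them a single bin, and 38.9% touched a bin marked in all 4 libraries. The gain formed 4414 stretches, 66.0% of them a single bin, and 27.4% touched such a bin. The longest lost stretch was chr17:21850001-21990000, 140 kb near the centromere without a protein-coding gene, covered over 0% and 0% in DKO, 97.1% and 96.6% in SKO, and 23.4% and 13.7% in sgControl. Another lost stretch, chr16:34690001-34770000, was covered over 0% and 0% in DKO, 96.5% and 96.5% in SKO, and 0% and 0% in sgControl. Reads in such repeat-rich DNA match several places, and the sources used here do not say how they were handled.

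The longest gained stretch, chr3:2470001-2570000, lies in CNTN4, which encodes a contactin, an adhesion protein of neurons. It was covered over 78.8% and 89.6% in DKO, 0% and 1.20% in SKO, and 100% and 96.0% in sgControl. A further one, chr1:240730001-240810000, overlaps RGS7, a regulator of G protein signalling in the brain, with 95.0% and 83.5% in DKO, 0% and 0% in SKO, and 95.0% and 95.0% in sgControl. In these intervals SKO alone lacked the mark. The second longest gained stretch, chr5:2390001-2480000, had 89.3% and 90.2% in DKO, 0% and 1.78% in SKO, and 0% and 0% in sgControl, so there DKO alone carried it. In chr12:114120001-114200000, with 99.0% and 90.0% in DKO and 6% and 0% in SKO, sgControl lay between at 44.0% and 21.0%. All 5 of the longest gained stretches lay wholly inside H3K27me3 domains in DKO and SKO.

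Against the sgControl level, the gained and the lost bins differed. Of the 66.0 Mb gained outside chromosome 7, 34.3 Mb (52.0%) were marked in both sgControl libraries and 18.1 Mb (27.5%) in neither, whereas of all bins that could have been gained 12.5% were marked in both. Of the 36.8 Mb lost there, 15.8 Mb (42.8%) were marked in both sgControl libraries and 13.4 Mb (36.4%) in neither, whereas of all bins that could have been lost 75.3% were marked in both. On chromosome 7, 13.6 Mb (65.6%) of the loss were marked in both and 3.79 Mb (18.3%) in neither. The SKO libraries enter the comparison with DKO and also any comparison with sgControl, so these shares are levels and not a second result.

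**Figure D3:**
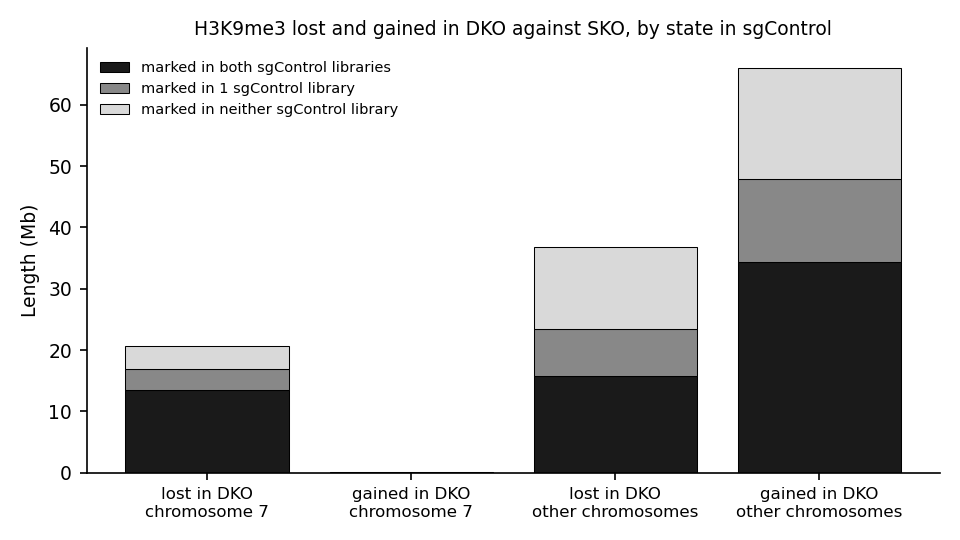
Length of 10 kb bins lost and gained in DKO against SKO (Mb), on chromosome 7 and on the other chromosomes, shaded by whether the bins were marked in both, 1 or neither of the sgControl libraries. Chromosome 7 has 20.66 Mb lost and 0.07 Mb gained, and 34.3 of the 66.0 Mb gained elsewhere were marked in both sgControl libraries.

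The gained and the lost bins lay in different chromatin by measures that did not enter the calls. Of the length of bins gained outside chromosome 7, H3K27me3 domains covered 87.8% and 87.5% in DKO, 87.3% and 86.8% in SKO, and 77.4% and 77.5% in sgControl. Over all bins that could have been gained the values were 35.0% and 33.97% in DKO and 34.1% and 33.6% in SKO. The H3K9me3 of DKO in these bins thus lay mostly where H3K27me3 lay in SKO as well, and the H3K27me3 coverage of those bins differed by less than 1 percentage point between DKO and SKO.

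The bins lost outside chromosome 7 showed the opposite. H3K27me3 covered 13.4% and 13.4% of them in DKO and 12.4% and 11.95% in SKO, against 53.1% and 52.5% in DKO and 52.1% and 51.9% in SKO over all bins that could have been lost. With the lists trimmed to the same length on these chromosomes, H3K27me3 covered 86.7% and 86.3% of the gained bins and 16.9% and 16.6% of the lost bins in DKO. On chromosome 7 the lost bins were covered over 44.8% and 43.5% in DKO and 53.5% and 53.6% in SKO, close to the 47.8% and 47.1% in DKO and 52.9% and 52.1% in SKO of the bins that stayed marked there.

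SETDB1 peaks of wild-type cells were densest in bins that kept H3K9me3. Bins marked in all 4 libraries held 29.6 and 30.5 SETDB1 peaks per Mb (WT replicates 1 and 2) outside chromosome 7, and 45.6 and 47.4 per Mb on it. Lost bins held 11.2 and 11.1 per Mb outside chromosome 7 and 8.62 and 9.39 on it, and gained bins held 3.30 and 3.50. Bins marked in none of the 4 held 2.16 and 2.35. The SETDB1 libraries come from cells with both SUV39H genes, so they say where SETDB1 was before either knockout and nothing of where it is in DKO or SKO.

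**Figure D4:**
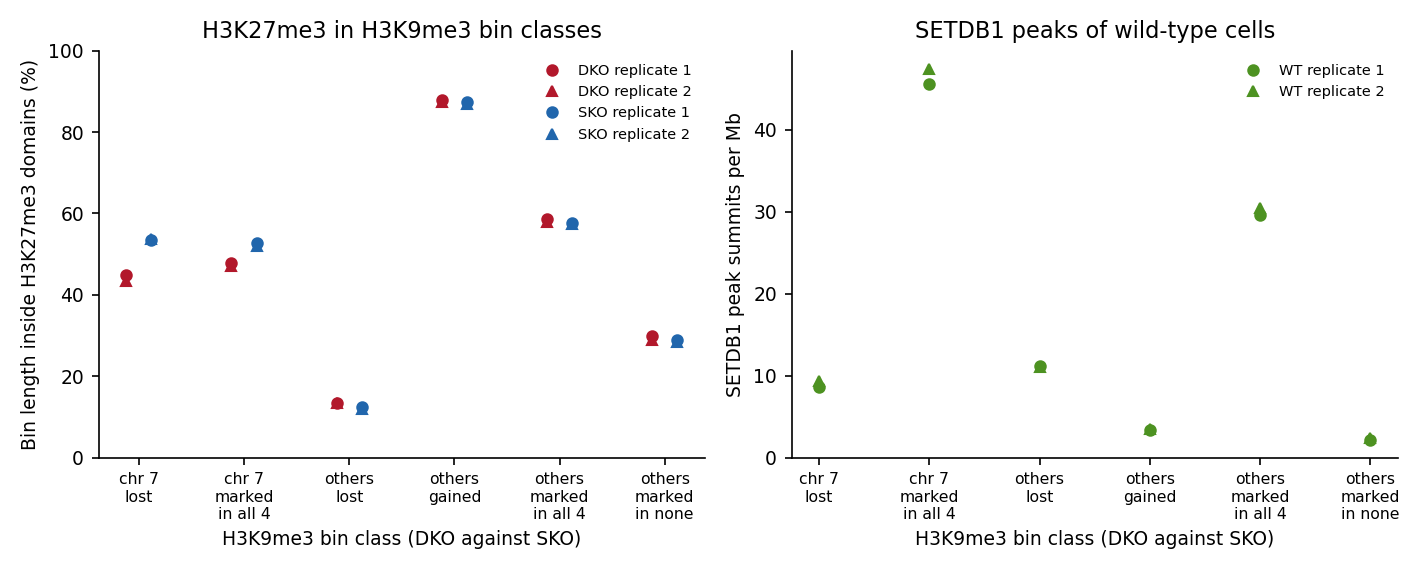
Left, percent of bin length inside H3K27me3 domains of DKO and SKO, and right, SETDB1 peak summits per Mb of wild-type cells, for classes of 10 kb bins by their H3K9me3 change in DKO against SKO, 1 point per library. Gained bins stand near 88% H3K27me3 and lost bins outside chromosome 7 near 13%, and SETDB1 peaks are densest in bins marked in all 4 libraries.

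By gene, a call needed the DKO and SKO libraries not to overlap in the share of the gene body, in percent, that domains covered, and the nearest pair to differ by at least 25 percentage points. Of 19974 protein-coding genes, 267 lost H3K9me3 in DKO (1.34%) and 291 gained it (1.46%). Chromosome 7 held 131 of the lost genes (14% of its 938 genes, 47.6% of the 275 that could be lost) and none of the gained ones. Elsewhere 136 genes were lost (0.714%, 3.99% of 3405 that could be) and 291 gained (1.53%, 1.73% of 16847 that could be). When the lists were trimmed to the same length over all chromosomes 324 genes were lost and 236 gained, and with the same length outside chromosome 7 alone 218 were lost and 180 gained there.

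limma was fitted on the same percentages over the 7820 genes with some covered base. At an adjusted p under 0.05 it found 187 genes lower in DKO (2.39%) and 156 higher (1.99%), of which 102 and 109 were also called by the rule of 25 points. On chromosome 7 it found 70 lower and 0 higher, with a median difference of -22.4 points over its genes in the fit, against 0 over all genes. With the SKO replicate 1 library left out, more genes were lost than gained (505 against 483 by the rule of 25 points), while without any other of the 4 libraries more were gained. By limma, more genes were higher than lower outside chromosome 7 (156 against 117). The same order held over all chromosomes without DKO replicate 1 or DKO replicate 2, and the reverse order without SKO replicate 1 or SKO replicate 2. Where the 2 DKO libraries are equal to the base and the 2 SKO libraries are as well, the test takes its spread from other genes alone. Genes that switch between 0% and 100% therefore share 1 adjusted p.

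Named genes of chromosome 7 follow, as those with the widest gap among bodies of at least 10 kb. OR2A12 (chr7:144086278-144098953), an olfactory receptor gene, was covered over 0% and 0% in DKO, 100% and 100% in SKO, and 0% and 80.1% in sgControl. CLDN12, which encodes a claudin of cell junctions, had 0% and 0% in DKO, 100% and 100% in SKO, and 76.5% and 100% in sgControl. Both fell by 100 points with an adjusted p of 0.000105. H3K27me3 covered OR2A12 wholly in DKO and SKO, and CLDN12 over 0% and 0% in DKO and 50.9% and 70.1% in SKO.

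GNAI1, an inhibitory G protein subunit, had 0% and 0% in DKO, 78.8% and 74.6% in SKO, and 95.6% and 88.6% in sgControl (adjusted p = 0.00887). ZNF479, a zinc finger gene, had 0% and 13.8% in DKO, 100% and 100% in SKO, and 13.8% and 31.8% in sgControl (adjusted p = 0.0429). MGAM2, a relative of the gut maltase-glucoamylase, had 15.9% and 9.40% in DKO, 84.6% and 92.0% in SKO, and 13.0% and 29.7% in sgControl (adjusted p = 0.0360). In ZNF479 and MGAM2 the SKO libraries stood above both other genotypes.

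Of the 22 zinc finger genes of chromosome 7 that could be lost, 4 were called (18.2%). Of its 253 other genes that could be lost, 127 were called (50.2%). The mean percentage of the gene body covered over those 22 was 66.7% and 70.1% in DKO and 87.3% and 89.5% in SKO, and over the 253 others 33.4% and 35.0% in DKO and 70.6% and 71.6% in SKO. The zinc finger genes had the higher coverage in SKO as well, and the difference between these counts was not tested.

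Several long genes of neurons lie on chromosome 7, and 5 of the 6 lost genes in a list of 237 neuronal adhesion, guidance and channel genes were among them, where 131 of all 267 lost genes (49.1%) lay on this chromosome. They are given here after their values were seen. RELN, which encodes the secreted guidance protein reelin, had 27.8% and 35.1% in DKO, 96.6% and 95.8% in SKO, and 53.3% and 49.9% in sgControl. CACNA2D1, a calcium channel subunit, had 0% and 0% in DKO, 38.7% and 37.6% in SKO, and 85.4% and 81.5% in sgControl. KCND2, a potassium channel, had 7.21% and 6.87% in DKO, 49.1% and 51.4% in SKO, and 44.0% and 48.4% in sgControl. AUTS2 and GRM8 were the other two of this chromosome, and NEGR1 on chromosome 1 was the sixth.

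Both interferon stimulated genes called lost were neighbours on chromosome 7 as well. SAMD9, an antiviral factor that is mutated in inherited myeloid disease, had 34.7% and 74.0% in DKO, 100% and 100% in SKO, and 100% and 89.3% in sgControl. SAMD9L, its paralogue, had 41.2% and 0% in DKO, 100% and 80.4% in SKO, and 80.4% and 80.4% in sgControl. They were 2 of 16 members of that list that could be lost, where the share was 7.26% over all genes that could be lost and 47.6% on chromosome 7. The only gained member of 53 that could be (1.65% over all genes) was SIGLEC1, a macrophage lectin, with 65.5% and 37.5% in DKO, 0% and 0% in SKO, and 0% and 0% in sgControl. None of the 3 passed limma (adjusted p = 0.371 for SAMD9, 0.267 for SAMD9L and 0.214 for SIGLEC1), and SIGLEC1 lost its call at equal covered length. limma found 1 other member lower, TRIM25, a ubiquitin ligase that acts on RIG-I, with 12.6% and 12.6% in DKO, 18.7% and 18.7% in SKO, and 24.8% and 0% in sgControl (adjusted p = 0.0319). Among 28 nucleic acid sensing genes the rule of 25 points called none in either direction, and limma found 1 lower. That gene was also the only one of 10 in the fit at an unadjusted p under 0.05. It was TBK1, the kinase downstream of RNA and DNA sensors, with 0% and 0% in DKO, 6.4% and 6.4% in SKO, and 0% and 0% in sgControl (limma adjusted p = 0.0302). In TRIM25 and TBK1 the DKO libraries had equal values, as did the SKO libraries, so their adjusted p rests on the spread of other genes. Both differences were far below 25 points. Among 17 type I interferon genes neither the rule nor limma made a call. None of the 4 in the fit had an unadjusted p under 0.05, against 1576 of 7820 over all genes in the fit.

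Of the 10 lost genes outside chromosome 7 with the widest gap, 3 were zinc finger genes. Among all zinc finger genes there that could be lost, 7 of 368 were (1.90%), against 129 of 3037 other genes (4.25%). ZNF587B (chr19:57830299-57846238), a zinc finger gene of the chromosome 19 cluster, was covered over 0% and 0% in DKO, 100% and 100% in SKO, and 100% and 69.9% in sgControl. STC1, which encodes the hormone stanniocalcin, had 0% and 0% in DKO, 100% and 100% in SKO, and 84.4% and 84.4% in sgControl. Both differed by 100 points between DKO and SKO (adjusted p = 0.000105), and neither carried H3K27me3.

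DNASE2B, a nuclease of the eye lens, had 0% and 0% in DKO, 86.6% and 86.0% in SKO, and 95.7% and 75.8% in sgControl (adjusted p = 0.000258). SPC25, a kinetochore subunit, had 0% and 0% in DKO, 100% and 80.5% in SKO, and 63.9% and 47.3% in sgControl, and missed the limma threshold (adjusted p = 0.0708). ZNF202 and HSD11B1, the enzyme that activates cortisol, were likewise called by the gap and not by limma (adjusted p = 0.0530 and 0.0674). LOC112268016, known by number alone, passed it (adjusted p = 0.0491). With the upper 50% of domains by score DNASE2B, LOC112268016, ZNF202 and HSD11B1 lost their call. Each of these genes was covered in sgControl as well as in SKO.

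Other lost genes were covered in SKO alone. TAF4, a subunit of the general transcription factor TFIID, had 7.03% and 13.2% in DKO, 84.6% and 86.4% in SKO, and 0% and 0% in sgControl (adjusted p = 0.0194). ZNF512B had 0% and 0% in DKO, 66.5% and 66.5% in SKO, and 0% and 0% in sgControl (adjusted p = 0.000258). ABHD8 had 0% and 0% in DKO, 63.7% and 56.7% in SKO, and 0% and 0% in sgControl (adjusted p = 0.0315), and lost its call with the upper 50% of domains. In these 3 genes DKO and sgControl lay together at or near 0. Of all 136 genes lost outside chromosome 7, 40 were at 0% in both sgControl libraries and 48 were covered over at least 50% in both.

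The gained genes with the widest gap lay inside H3K27me3 domains in whole or in most of their body. CNGA2, a cation channel of olfactory neurons (chrX:151734746-151745564), was covered over 100% and 100% in DKO, 0% and 0% in SKO, and 0% and 0% in sgControl. TEX35, a testis gene (chr1:178513109-178523510), had 100% and 100% in DKO, 0% and 0% in SKO, and 100% and 27.8% in sgControl. DSEL, a relative of dermatan sulfate epimerase, had 100% and 100% in DKO, 0% and 0% in SKO, and 100% and 100% in sgControl. Each of the 3 rose by 100 points (adjusted p = 0.000105) and was wholly inside H3K27me3 domains in DKO and SKO.

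DPPA4, a gene of pluripotent cells, had 100% and 96.8% in DKO, 0% and 0% in SKO, and 100% and 100% in sgControl (adjusted p = 0.00315). KCNV1, a potassium channel subunit, had 88.7% and 100% in DKO, 0% and 0% in SKO, and 100% and 100% in sgControl (adjusted p = 0.0319). GABRE, a subunit of the GABA-A receptor, had 72.7% and 72.7% in DKO, 0% and 0% in SKO, and 0% and 0% in sgControl (adjusted p = 0.000214). The sgControl libraries thus matched DKO in DPPA4 and KCNV1, and SKO in GABRE. With the upper 50% of domains by score alone TEX35, DSEL, DPPA4, KCNV1, GABRE, AMER2, SERPINA5 and PSG8 lost their call, and CNGA2 kept it. KCNV1 and GABRE lost it at equal covered length as well. AMER2 and SERPINA5 also passed limma, and PSG8, of the pregnancy-specific glycoproteins, did not (adjusted p = 0.132). Over all 291 gained genes the median coverage was 73.4% in DKO, 2.25% in SKO and 50.0% in sgControl, and the median H3K27me3 coverage was 99.5% in DKO and 99.3% in SKO.

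**Figure D5:**
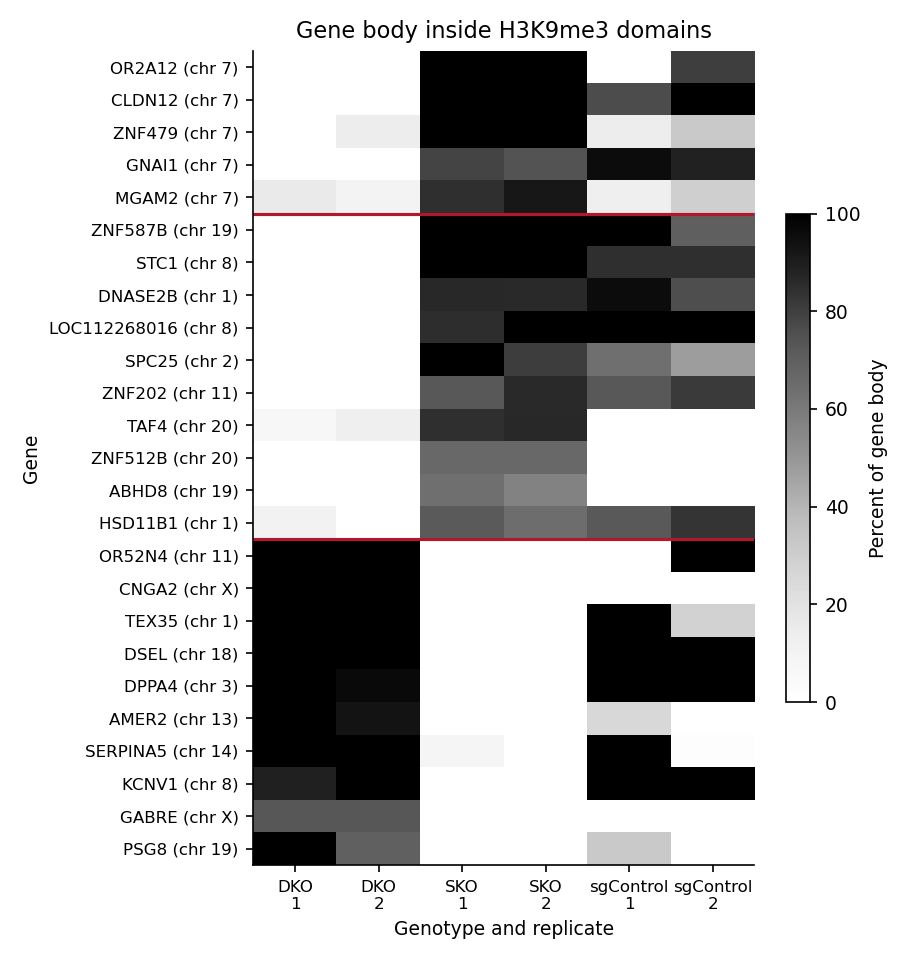
Percent of the gene body inside H3K9me3 domains for the named genes in DKO, SKO and sgControl libraries, with lost genes of chromosome 7 at the top, lost genes of other chromosomes in the middle and gained genes below. The DKO and SKO columns oppose each other by construction of the choice, and the sgControl columns range from 0% to 100% within each block.

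The promoter window of DNASE2B was covered over 0% and 0% in DKO and 100% and 0% in SKO, and is not shown. Promoters of 4 of the named genes are shown because their windows changed wholly between DKO and SKO, in either direction. Each runs from 250 bases before the start of the gene to 50 after it, from RefSeq on GRCh38.p14, on the plus strand, with every CG dinucleotide in capitals.
ZNF587B, lost, chr19:57830049-57830348: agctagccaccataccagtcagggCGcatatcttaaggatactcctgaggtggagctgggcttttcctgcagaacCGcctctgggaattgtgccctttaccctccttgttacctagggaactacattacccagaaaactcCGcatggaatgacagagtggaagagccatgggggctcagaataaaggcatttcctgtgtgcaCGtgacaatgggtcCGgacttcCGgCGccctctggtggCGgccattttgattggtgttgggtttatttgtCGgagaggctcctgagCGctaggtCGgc
OR2A12, lost, chr7:144086028-144086327: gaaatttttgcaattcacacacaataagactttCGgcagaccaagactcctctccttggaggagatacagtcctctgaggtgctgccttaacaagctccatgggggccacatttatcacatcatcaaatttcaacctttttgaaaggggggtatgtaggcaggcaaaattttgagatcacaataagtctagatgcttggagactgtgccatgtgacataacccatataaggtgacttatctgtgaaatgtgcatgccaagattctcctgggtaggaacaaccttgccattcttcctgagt
CNGA2, gained, chrX:151734496-151734795: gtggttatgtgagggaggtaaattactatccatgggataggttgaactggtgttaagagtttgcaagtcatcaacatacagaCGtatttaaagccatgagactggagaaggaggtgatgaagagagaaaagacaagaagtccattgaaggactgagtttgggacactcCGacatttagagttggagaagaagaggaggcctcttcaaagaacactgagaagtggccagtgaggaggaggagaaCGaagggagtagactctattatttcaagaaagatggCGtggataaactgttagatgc
TEX35, gained, chr1:178512859-178513158: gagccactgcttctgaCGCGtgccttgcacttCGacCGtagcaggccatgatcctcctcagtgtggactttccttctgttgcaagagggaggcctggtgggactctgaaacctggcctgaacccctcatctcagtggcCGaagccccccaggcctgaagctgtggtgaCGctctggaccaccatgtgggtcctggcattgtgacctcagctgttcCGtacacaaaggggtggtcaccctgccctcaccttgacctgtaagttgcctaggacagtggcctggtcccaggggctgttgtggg
The CG count was 11 in ZNF587B, 1 in OR2A12, 4 in CNGA2 and 7 in TEX35. At least 1 CG was found in 98.1% of all 15812 promoters matched by gene. Outside chromosome 7 the median was 14 CG in the 94 lost promoters, 10 in the 177 gained ones, 12 in the 1252 marked in all 4 libraries and 23 in the 12142 marked in none. On chromosome 7 it was 11.5 in the 64 lost ones, 4 in the 50 marked in all 4 and 24 in the 573 marked in none. In both places changed promoters had fewer CG, by the median, than unmarked ones, and on chromosome 7 the lost ones had more than those that stayed marked. No gained promoter lay on chromosome 7.

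Olfactory receptor genes, the largest clustered family of silent genes in blood cells, were the list with the most gains. Of 392 measured, 33 were gained, which is 16.1% of the 205 that could be, against 1.65% over all genes that could be gained. Of 150 that could be lost 7 were (4.67%, against 7.26% over all genes), 4 of them in the OR2A cluster of chromosome 7. The mean percentage of the gene body covered was 55.4% and 52.7% in DKO, 42.6% and 41.9% in SKO, and 55.1% and 57.6% in sgControl. The DKO libraries lay above both SKO libraries and close to sgControl. The median difference over the 279 members with some covered base was 0, as over all genes.

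Of the gained receptors 21 lay on chromosome 11 and 6 on chromosome 12, and the 33 fell into 23 places when neighbours within 100 kb were joined. OR52N4 (chr11:5726472-5755958) was covered over 100% and 100% in DKO, 0% and 0% in SKO, and 0% and 100% in sgControl. OR56B1, which lies inside the annotated body of OR52N4, had the same values, so the pair is 1 observation. The globin genes HBD and HBG1 lie among receptor clusters on chromosome 11. Each had 100% and 100% in DKO, 0% and 0% in SKO, and 0% and 0% in sgControl. They were 2 of 18 erythroid and globin genes that could be gained, against 1.65% over all genes. HBB, a further globin gene, had 0% and 100% in DKO, 0% and 0% in SKO, and 0% and 0% in sgControl. H3K27me3 covered 69.8% and 68.5% of the mean receptor body in DKO and 67.5% and 67.3% in SKO. With the lists trimmed to the same length outside chromosome 7, 25 receptors were gained there and 3 lost. Without 1 library 50 to 61 were gained, and with the upper 50% of domains 20. HBD and HBG1 lost their call with the upper 50% of domains.

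Keratin associated proteins, structural proteins of hair, had 10 gained genes of 54 that could be (18.5%, against 1.65% over all genes), and all 10 lay in 1 cluster of chromosome 21. KRTAP13-2 and KRTAP19-1 were each covered over 100% and 100% in DKO, 0% and 0% in SKO, and 100% and 100% in sgControl. KRTAP13-1 had the same values in DKO and SKO and 0% and 0% in sgControl. KRTAP19-1 lost its call with the upper 50% of domains. The list's mean was 51.1% and 48.8% in DKO, 37.3% and 31.1% in SKO, and 50.1% and 54.3% in sgControl. With neighbours within 100 kb joined, the 10 genes count as 1 place, and whether the cluster changed as a block was not tested. With the lists trimmed to the same length outside chromosome 7, 6 were gained, and without SKO replicate 1, 17. KRTAP17-1 on chromosome 17 was the lost one, with 0% and 0% in DKO, 100% and 100% in SKO, and 0% and 0% in sgControl, and it lost its call with the upper 50% of domains.

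In the neuronal list 17 of 209 genes that could be were gained (8.13%, against 1.65% over all genes), in 16 places on 11 chromosomes. KCNA5, a potassium channel, had 100% and 100% in DKO, 0% and 0% in SKO, and 0% and 0% in sgControl. KCNA1, a close relative, had 100% and 65.3% in DKO, 0% and 0% in SKO, and 5.94% and 100% in sgControl. The mean over the list was 25.01% and 24.5% in DKO, 19.8% and 19.6% in SKO, and 31.7% and 31.4% in sgControl. With the trimmed lists outside chromosome 7 the count was 7. KCNA5 and KCNA1 lost their call with the upper 50% of domains.

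In the lists that follow, the shares over all genes are 7.26% of those that could be lost and 1.65% of those that could be gained. Cancer testis antigens had 5 gained of 131 that could be, with PAGE4 at 100% and 100% in DKO, 0% and 0% in SKO, and 100% and 38.8% in sgControl, and none lost of 12. The gained count was 3 with the trimmed lists, 1 with the upper 50% of domains, 9 without DKO replicate 1 and 10 without DKO replicate 2. Clustered protocadherins had 2 gained of 30, with PCDHB2 and PCDHB4 at 100% and 100% in DKO, 0% and 0% in SKO, and at least 85.7% in sgControl, and 1 lost of 20. Homeobox and other developmental regulators had 5 lost of 20 and 1 gained of 164. The lost were FOXL3 on chromosome 7, and SOX30, POU4F1, SOX12 and FOXJ3 elsewhere. limma found 2 of them lower. FOXL3 had 0% and 0% in DKO, 100% and 100% in SKO, and 100% and 100% in sgControl (adjusted p = 0.000105). SOX30 had 0% and 0% in DKO, 34.9% and 33.2% in SKO, and 0% and 50.5% in sgControl (adjusted p = 0.00887). The gained gene was MEIS2, a cofactor of HOX proteins. It had 63.4% and 70.2% in DKO, 23.01% and 18.9% in SKO, and 82.8% and 78.3% in sgControl, and missed limma (adjusted p = 0.0540). SOX30 and MEIS2 lost their call with the upper 50% of domains. Among genes of other blood lineages IL7R of T cells was lost by the rule of 25 points and not by limma (adjusted p = 0.195), with 36.6% and 40.5% in DKO, 75.3% and 100% in SKO, and 61.7% and 54.6% in sgControl. BLK, a kinase of B cells, was gained, with 96.9% and 93.2% in DKO, 51.3% and 46.7% in SKO, and 53.6% and 75.2% in sgControl. Cytochrome P450 genes had 3 lost of 21 and 3 gained of 44. HOX genes, histone genes, Polycomb genes and the 54 myeloid genes had no call by the rule of 25 points. limma found 1 lower gene among them, KDM6A, an H3K27 demethylase, with 23.4% and 22% in DKO, 45.1% and 46.1% in SKO, and 0% and 7.68% in sgControl (limma adjusted p = 0.0173). At an unadjusted p under 0.05 it found 5 of 27 myeloid genes in the fit and 2 of 9 of the Polycomb list. It found 0 of 9 HOX and 0 of 10 histone genes, against 1576 of 7820 over all genes in the fit.

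Zinc finger genes of chromosome 19, the known ground of SETDB1, are given next. Of 229 that could be lost 5 were (2.18%, against 3.99% over genes outside chromosome 7), and of 35 that could be gained 2 were (5.71%, against 1.73%). The mean coverage over 260 genes was 85.5% and 86.4% in DKO, 86.7% and 86.8% in SKO, and 86.5% and 85.5% in sgControl. The neighbours ZSCAN5B and ZSCAN5C were the gained ones. ZSCAN5B had 100% and 100% in DKO, 0% and 0% in SKO, and 100% and 62.0% in sgControl.

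Among 31 genes of the H3K9 methylation machinery 1 was called. SETDB2, a relative of SETDB1, gained coverage, with 58.3% and 61.5% in DKO, 31.5% and 31.5% in SKO, and 18.9% and 15.8% in sgControl. SETDB1 itself had 12.5% and 16.6% in DKO, 20.8% and 20.8% in SKO, and 0% and 0% in sgControl, below the difference needed for a call. Leukaemia genes had 2 lost of 7 that could be, SAMD9 and SAMD9L of chromosome 7, and 1 gained of 48. The shares over all genes were 7.26% and 1.65%, and on chromosome 7 47.6% of those that could be lost were. The gained gene was NPM1, a nucleolar chaperone often mutated in this disease. It had 40.4% and 33.6% in DKO, 0% and 0% in SKO, and 0% and 0% in sgControl, and missed limma (adjusted p = 0.0585). All 20 housekeeping genes stood at 0% in every knockout library. Olfactory receptors, keratin associated proteins, protocadherins, cancer testis antigens and zinc finger genes have near-identical relatives, so the values of single members are uncertain.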

How the data were processed

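H3K9me3 ChIP-seq with Drosophila chromatin added as a spike-in was compared between DKO and SKO. Trim Galore 0.6.10, FastQC 0.12.1, deepTools 3.5.6 and SICER are named in the submitters' processing notes, with builds hg38 and dm6. The sources used here name no aligner and do not say how reads matching several places were treated. The deposited domain lists come from epic2 and hold a read count per domain, not normalised for depth or spike-in, and a score, used here to rank domains within a list. Without a spike-in factor they cannot show a change in the total amount of the mark. The deposited SETDB1 peak lists hold a score, a fold enrichment ratio and −log10 p-values per peak, of which only positions were used.

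Domains lay on an 800 bp grid. Coverage was computed on chromosomes 1 to 22 and X per 10 kb bin, chromosome and RefSeq gene body (GRCh38.p14, 19974 genes), with Python 3.11.15, numpy 2.4.6, pandas 2.3.3 and matplotlib 3.10.9. limma 3.58.1 (R 4.3.3) was fitted on gene percentages and on log2 marked length, two-sided, with Benjamini-Hochberg adjustment at 0.05, and was tested on simulated data. The labels do not state that replicates were separate cultures, so p-values measure only the spread between these libraries, which may be technical. Replicate numbers did not pair the libraries. The comparison, the gene lists and the rule for named genes were chosen with earlier results of these data known. Genes named were those with the widest gap between DKO and SKO libraries, 10 per direction outside chromosome 7 and 5 on it with a body of at least 10 kb, and up to 4 called genes per list. Alternatives changed the domain score limit, list length, bin, gene rule, fit and libraries.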

Additional observations from a re-analysis of the deposited data

How the results depend on the processing

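Chromosome 7 was lower in DKO under each alternative tried. Its marked length differed by -34.0 Mb as reported, by -31.2 Mb with the upper 50% of domains by score, by -36.0 Mb at equal covered length, by -35.4 and -30.9 Mb with bin shares of 25% and 75%, by -35.7 Mb in bins of 50 kb, and by -34.3 to -33.8 Mb without 1 library. The balance elsewhere was less firm. The covered length differed by -0.0108 Mb at equal length, as built, and by 69.5 Mb without chromosome 7. Without chromosome 7, 36.8 Mb and 136 genes were lost and 105 genes were lower by limma. An alternative chosen after seeing the data, equal length without chromosome 7, gave 42.9 Mb and 180 genes gained. Leaving out 1 library, which asks less of the overlap rule, gave 95.7 to 104 Mb lost and 110 to 139 Mb gained, and 446 to 505 genes lost and 471 to 571 gained. In limma the lone library is then assumed to vary like the other genotype, and 262 to 641 genes were lower and 268 to 612 higher. As reported, lower genes outnumbered higher ones by limma (187 and 156). Higher genes outnumbered lower ones without chromosome 7 (148 and 105) and with the replicate number as a block (58 and 35). Leaving out DKO replicate 1 or DKO replicate 2 also left more genes higher than lower. Leaving out SKO replicate 1 or SKO replicate 2 left more genes lower than higher, so the order turned with the genotype that lost a library. A gene difference of 10 points gave 727 lost and 631 gained, and 50 points gave 74 and 104. With all genes in the fit 124 were lower by limma, and 310 on an arcsine scale. The covered length and the balance of lost and gained genes (324 and 236 at equal length) thus turn with list length. No named gene was called in the opposite direction, and 33 of 64 named genes with a call kept it under every domain setting and left-out library. With the upper 50% of domains by score, the gap between the nearest pair of libraries fell to -13.6 points in PCDHB10 and -10.2 points in IL7R.

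Replicate numbers share only a number. The correlation of replicate differences between DKO and SKO was -0.0073 over 7820 genes. With the replicate number as a block, 35 genes were lower and 58 higher by limma, chromosome 7 kept an adjusted p of 0.00160, and 17 chromosomes were higher.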

Other observations

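Outside chromosome 7, 46 of 136 lost genes and 95 of 291 gained genes had a body under 10 kb, with medians of 20.0 kb and 28.2 kb over the lost and the gained genes. The lost genes of chromosome 7 had a median body of 70.2 kb. These lengths were not tested. Of the 136 lost genes outside chromosome 7, 17 were covered wholly in both SKO libraries and at 0% in both DKO libraries, and 50 gained genes showed the reverse. Such genes lie inside 1 domain, so a single called domain decides them. The overlap of domains, as shared over joint length, was 0.569 between the DKO libraries and 0.725 between the SKO libraries on chromosome 7, against 0.686 and 0.702 on the other chromosomes. Between a DKO and an SKO library the overlap was 0.406 to 0.408 on chromosome 7 and 0.629 to 0.634 on the other chromosomes.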
